A study of Mus musculus with 6 samples.

Results

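The H,K-ATPases and potassium channels of the collecting duct were described as a set of 9 genes. Atp12a and Atp4a encode the catalytic subunits of the colonic and the gastric H,K-ATPase, Kcnj1, Kcnj10, Kcnj16 and Kcnk1 encode pore-forming channel subunits, and Kcne1 encodes an accessory subunit. Kcnma1 and Kcnmb4 encode the pore and an auxiliary subunit of the large-conductance calcium-activated (BK) channel. The set was chosen by name, and identifiers were assigned to a member where at least 50% of their exonic bases lay in its exons on the same strand. All 9 members were matched, of 24927 genes in the tables, and 7 had enough counts to be tested. Total RNA had been sequenced from collecting duct cells of male mice of the inbred strain C57BL/6J, with 3 libraries per diet. One group received a low-NaCl diet with 0.01 to 0.02% sodium and the other a high-NaCl diet with 2.4% sodium, each for 5 days, and no untreated or intermediate diet was compared. How the cells were obtained is not stated, and neither is the number of animals behind a library, so p-values measure the spread between libraries, which may be technical.

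The collecting duct sets the final potassium content of urine. Principal cells take up sodium through the epithelial sodium channel ENaC and secrete potassium through apical channels, chiefly the renal outer medullary potassium channel ROMK, the product of Kcnj1, and under high flow the BK channel. Intercalated cells carry H,K-ATPases, which move protons into the lumen in exchange for potassium and so recover potassium, and basolateral inward rectifiers set the membrane voltage of several distal tubule cells. Aldosterone, which rises on low sodium intake, acts on both sodium uptake and potassium secretion.

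Levels are given in CPM, the counts relative to the scaled library total, as low-NaCl libraries 1, 2 and 3 and then high-NaCl libraries 1, 2 and 3. Differences are log2 fold changes, low-NaCl minus high-NaCl, with their standard error (SE), from edgeR's quasi-likelihood test with Benjamini-Hochberg adjustment over 10564 genes. The threshold was an adjusted p of 0.05. Reads had been counted per transcript, and a read touching exons of more than 1 transcript was not counted. Exonic bases that belong to a single transcript are called countable, and in several members they were a small part of the exons. In RNA of pooled cells, fewer cells of a type and less RNA per cell cannot be told apart.

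On the low-NaCl diet Atp12a fell 14.5-fold, and it was the only member to pass the test in the summed counts of a gene. Kcnj1 as a whole did not differ detectably, but its counts came from 2 first exons, and the inner one fell 6.99-fold on the low-NaCl diet while the outer one did not pass the test. Kcnk1 was 1.54-fold higher on low NaCl without passing. Of the 7 tested members, 0 passed as higher and 1 as lower, against 1.72% and 1.74% of all tested genes, or 3.46% in either direction. At an unadjusted p under 0.05 there were 1 higher member, Kcnk1, and 2 lower ones, Atp12a and Kcne1, beside 9.17% and 9.13% of all tested genes. DESeq2 called 1 member higher, Kcnk1, and limma-voom called 0. The diets did not overlap in 3 members, against 23.9% of all tested genes. The low-NaCl libraries lay above in Kcnk1, as in 12.3% of genes, and below in Atp12a and Kcne1, as in 11.6%. The median log2 fold change of the 7 was 0.03, beside a median of -0.0020 over all tested genes.

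**Figure D1:**
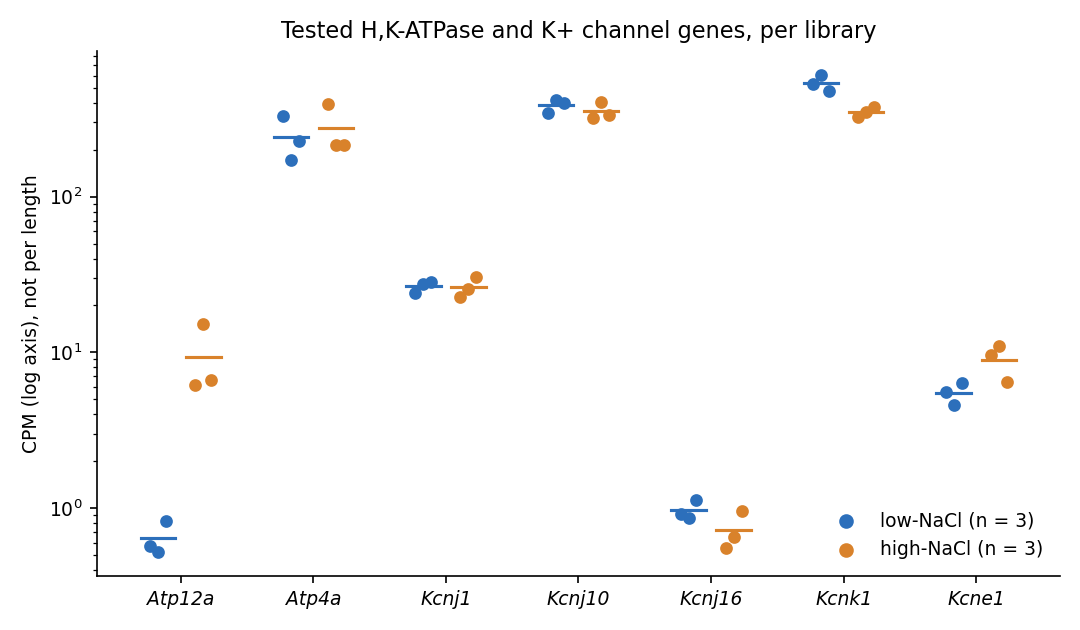
Level of each tested H,K-ATPase and potassium channel gene in each library, in CPM on a log axis (points, blue for low-NaCl and orange for high-NaCl; lines, mean of 3 libraries). Atp12a is the gene whose diets lie far apart, from 0.524 to 0.825 against 6.16 to 15.1 CPM, and heights of different genes are not comparable because CPM is not per length.

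Atp12a encodes the catalytic subunit of the colonic-type H,K-ATPase, a pump known to be induced in the collecting duct by potassium depletion. It lies on chromosome 14 (56365068 to 56388550, plus strand, build mm10), and its single transcript identifier was 100% countable over 23 exons, coding for 1035 residues. The libraries held 23, 23 and 35 counts on the low-NaCl diet and 224, 791 and 248 on the high-NaCl diet. As levels these were 0.571, 0.524 and 0.825 CPM against 6.16, 15.1 and 6.60 CPM. The diets did not overlap, and the highest low-NaCl library stood well under the lowest high-NaCl library. High-NaCl library 2 was the highest. The means were 0.640 ± 0.162 and 9.29 ± 5.05 CPM (SD, n = 3 each), the log2 fold change was -3.86 ± 0.41 (SE), and the edgeR adjusted p was 0.0036. By size this was the third lowest log2 fold change, rank 3 of 10564 genes, and by p it was rank 9.

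The fall of Atp12a did not rest on 1 library. Leaving out each library in turn gave log2 fold changes from -4.09 to -3.31 with edgeR adjusted p from 0.00113 to 0.0228. The setting without high-NaCl library 2, the highest, gave -3.31, the smallest of these changes. With sequencing lane as a term the log2 fold change was -3.42 and the call ended (adjusted p = 0.196), because that fit leaves the diet difference to lane 1, which held library 1 of each diet. Within lane 1 the levels were 0.571 and 6.16 CPM. Of the 23 exons, 4 overlap the antisense gene Gm10873, and counting without strand cannot separate reads of the pair there. The tested genes outside the list with profiles most like that of Atp12a over the 6 libraries were Rasgrp2, Fosb and Ckap2. Their root mean square differences from it on the centred log2 scale were 0.505, 0.616 and 0.629, and their own log2 fold changes were -3.31, -2.90 and -2.76. Fosb encodes an immediate early transcription factor, and Rasgrp2 a guanine nucleotide exchange factor.

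Atp4a encodes the catalytic subunit of the gastric-type H,K-ATPase, the acid pump of the stomach that intercalated cells also use. It lies on chromosome 7 (30712209 to 30725534, plus strand), and only 13.57% of its exonic bases were countable. All of its counts came from a single block of 379 bases at the end of the last exon, so they measure transcript ends there rather than the whole transcript. Levels were 328, 173 and 226 CPM on the low-NaCl diet and 393, 216 and 216 CPM on the high-NaCl diet, and the diets overlapped. Library 1 was the highest of each diet. The log2 fold change was -0.18 ± 0.29 and the edgeR adjusted p 0.789. Within a library, the log2 ratio of Atp12a to Atp4a was -9.13, -8.34 and -8.08 on the low-NaCl diet and -5.99, -3.83 and -5.03 on the high-NaCl diet. On the low-NaCl diet the ratio was lower by 11.8-fold, with no overlap between the diets. Its two-sided exact permutation p was 0.1, the smallest that 3 against 3 libraries allow.

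H,K-ATPases need a beta subunit to reach the membrane, and the list of pump beta subunits held 4 genes. Atp4b, the gastric partner, 60.2% countable, had no count in any library, which allows at most 3 counts per library, or 0.0574 to 0.0825 CPM. Atp1b1, the beta subunit of the Na,K-ATPase that can also pair with the Atp12a product, was abundant, at 7850, 9336 and 7512 CPM against 5858, 7939 and 6625 CPM. Its diets overlapped, with a log2 fold change of 0.27 ± 0.19 and an edgeR adjusted p of 0.502. Atp1b2 and Atp1b3 had log2 fold changes of 0.13 and 0.07. None of the 3 tested beta subunits passed by edgeR, DESeq2 or limma-voom, with 0 at an unadjusted p under 0.05 in edgeR.

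Kcnj1 encodes ROMK, and its transcripts differ in where they begin. It lies on chromosome 9 (32372493 to 32399197, plus strand), and 12.06% of its exonic bases were countable. The countable bases were the first exons of 2 transcripts that share the rest. The outer first exon (32372418 to 32372613, 196 countable bases) is noncoding and leads to a protein of 372 residues. The inner first exon (32393985 to 32394182, 198 countable bases) starts 21567 bases downstream, holds 39 coding bases, and leads to a protein of 392 residues, with 20 codons more at the amino terminus. Longer and shorter ROMK proteins of this kind are known as ROMK1 and ROMK2, and ROMK1 has been described as the form of the collecting duct. The added 60 coding bases are shown because they are what separates the proteins. The capitals mark the 39 bases in the inner first exon (chr9:32394144-32394182, build mm10, plus strand), and the lower case marks the 21 bases in the shared second exon (chr9:32396321-32396341):
Kcnj1 added coding sequence: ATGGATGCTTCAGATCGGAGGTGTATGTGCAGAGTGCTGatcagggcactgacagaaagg

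At the outer start the libraries held 953, 1192 and 1177 counts on the low-NaCl diet and 745, 1072 and 1007 on the high-NaCl diet. The levels were 23.7, 27.1 and 27.8 CPM against 20.5, 20.5 and 26.8 CPM. These overlapped, with a log2 fold change of 0.21 ± 0.16 and an edgeR adjusted p of 0.546 in a fit of 12192 identifiers. At the inner start there were 18, 19 and 28 counts on the low-NaCl diet and 80, 262 and 133 on the high-NaCl diet. The levels were 0.447, 0.433 and 0.660 CPM against 2.20, 5.01 and 3.54 CPM, with every high-NaCl library above every low-NaCl library. The means were 0.513 ± 0.127 and 3.58 ± 1.40 CPM (SD, n = 3 each). The log2 fold change of the inner start was -2.81 ± 0.36 and its edgeR adjusted p 0.00649. In that fit 1.41% of identifiers passed as lower. The outer start supplied most of the counts of the gene. The whole gene measured 24.1, 27.6 and 28.4 CPM against 22.7, 25.5 and 30.3 CPM, a log2 fold change of 0.03 ± 0.15 with an adjusted p of 0.941.

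The inner start made up 1.85% (95% exact binomial interval 1.10 to 2.91), 1.57% (0.947 to 2.44) and 2.32% (1.55 to 3.34) of the Kcnj1 counts in the low-NaCl libraries. In the high-NaCl libraries it made up 9.70% (7.76 to 11.9), 19.6% (17.5 to 21.9) and 11.7% (9.86 to 13.7). These intervals cover counting error only, and no low-NaCl interval reached a high-NaCl one. High-NaCl library 2 had the highest share, as it had the highest Atp12a. A test of whether a transcript's change differs from that of its gene was added after the values were seen (edgeR's diffSpliceDGE, over 2900 identifiers of genes with several). It gave the inner Kcnj1 start a log2 difference of -1.96 and an adjusted p of 0.000182, and it was the only one of the 2900 to pass (0.0345%). On the low-NaCl diet the ratio of the inner to the outer start was lower by 7.70-fold, with a two-sided exact permutation p of 0.1, the smallest possible.

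**Figure D2:**
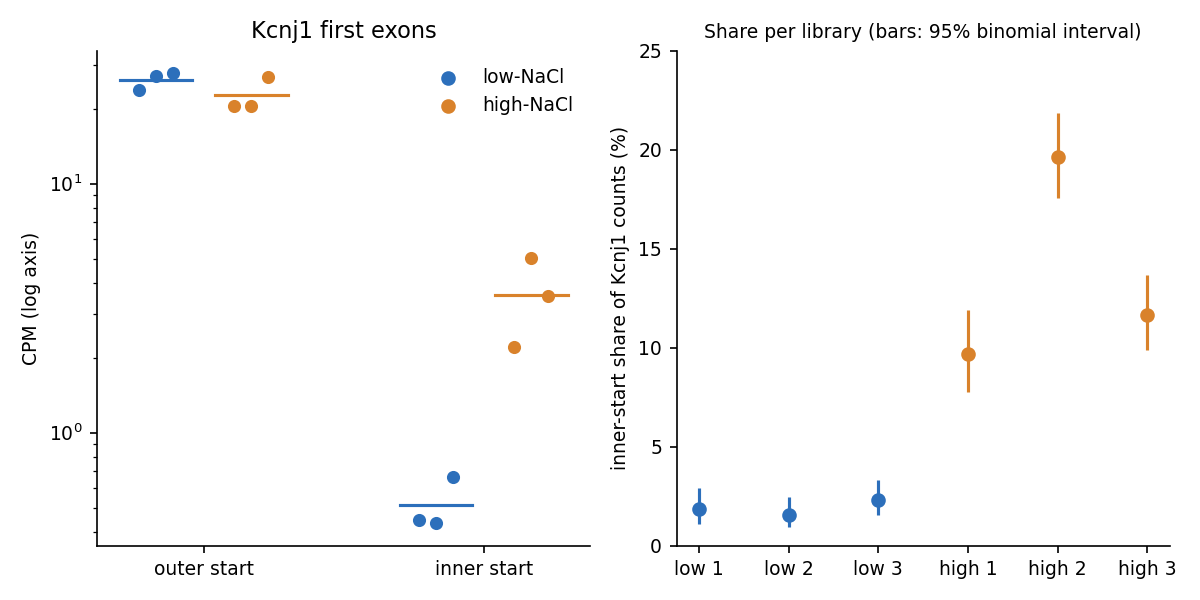
Left, level at the outer and inner first exons of Kcnj1 in each library, in CPM on a log axis (points, libraries; lines, mean of 3). Right, share of Kcnj1 counts at the inner start in each library, in percent, with 95% exact binomial intervals as bars. The share lies between 1.57% and 2.32% in the low-NaCl libraries and between 9.70% and 19.6% in the high-NaCl libraries.

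Leaving out each library in turn gave the inner start log2 fold changes from -3.06 to -2.49 and edgeR adjusted p from 0.00455 to 0.0346. The usage test then gave adjusted p from 9.15e-05 to 0.0132. With lane as a term the fold change was -2.30 and the call ended (adjusted p = 0.191). In lane 1 alone the inner start measured 0.447 against 2.20 CPM. The inner exon lies inside an intron of the outer transcript, so spliced reads of the inner transcript and unspliced reads of the outer one cannot be told apart there. Reads that join either first exon to the shared second exon touch both transcripts and were not counted, so the share is one of reads lying in the first exons alone.

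The 250 bases before the inner start are shown because this start carried the difference within Kcnj1, and steroid receptor motifs were searched because aldosterone acts through such a receptor. They are chr9:32393735-32393984 of build GRCm38.p6, plus strand, from RefSeq, in which 7 of the 9 members had an entry. The capitals mark both copies of AGAACA, a half-site of the steroid receptor element that mineralocorticoid and glucocorticoid receptors recognise:
Kcnj1 inner start, upstream window: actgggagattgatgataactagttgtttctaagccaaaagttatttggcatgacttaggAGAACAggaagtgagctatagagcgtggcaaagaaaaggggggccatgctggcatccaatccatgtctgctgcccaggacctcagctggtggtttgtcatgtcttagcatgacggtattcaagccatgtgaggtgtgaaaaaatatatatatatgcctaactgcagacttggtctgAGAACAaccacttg
The copies begin 190 and 14 bases before the start. Searched on both strands, AGAACA is present in 16.1% of 32817 windows of this length and at least 2 copies in 1.81%. The window also holds TGACG, part of the cyclic AMP response element, 81 bases before the start (17.7% of windows). The full palindromic steroid receptor element, AGAACA followed after 3 bases by its reverse complement, and the letters TATAAA are not in it, and they are in 0.00914% and 12.4% of windows. Among the other members with an entry, Kcnj10 and Kcnmb4 each have 1 copy of the AGAACA half-site on the opposite strand, 191 and 140 bases before the start. The window before the outer Kcnj1 start was not searched, so the 2 starts cannot be compared in these motifs. A match describes the letters and is not evidence that a factor binds, and no link to aldosterone was tested.

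Kcnj10 and Kcnj16 encode inward rectifiers that assemble into the main basolateral potassium channel of the distal nephron. Kcnj10 (chromosome 1, 172341210 to 172374085, plus strand) was 100% countable. It measured 345, 421 and 400 CPM against 321, 408 and 335 CPM, and the diets overlapped. The log2 fold change was 0.13 ± 0.16 and the edgeR adjusted p 0.709. Kcnj16 (chromosome 11, 110968033 to 111027968, plus strand) was 7.50% countable, and nearly all of its counts came from 81 noncoding bases of 1 transcript. It measured 0.919, 0.865 and 1.13 CPM against 0.550, 0.650 and 0.958 CPM, a log2 fold change of 0.44 ± 0.34 with an adjusted p of 0.544. The low counts of Kcnj16 describe that short stretch and not the abundance of the subunit. The log2 ratio of Kcnj10 to Kcnj16 differed by -0.32 between the diets (two-sided exact permutation p = 0.4).

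Kcnk1 encodes a subunit of the two-pore potassium channel TWIK1, a background channel found along the distal nephron. It lies on chromosome 8 (125995170 to 126030685, plus strand) and was 100% countable, although its last exon overlaps the antisense gene Gm45875. The libraries measured 526, 608 and 477 CPM on the low-NaCl diet and 324, 351 and 375 CPM on the high-NaCl diet. Every low-NaCl library was above every high-NaCl library. The means were 537 ± 66.3 and 350 ± 25.6 CPM (SD, n = 3 each). The log2 fold change was 0.62 ± 0.15, and the edgeR adjusted p of 0.0596 missed the threshold. Without a filter on low counts the adjusted p was 0.0454, and DESeq2 gave 0.00253. Kcnk1 did not pass by limma-voom (0.0575), with lane as a term (0.368) or with any single library left out (0.0605 to 0.251). Within lane 1 the levels were 526 and 324 CPM.

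Kcne1 encodes an accessory subunit that slows and enlarges the current of KCNQ1 channels. It lies on chromosome 16 (92345982 to 92359468, minus strand), and 6.35% of its bases were countable, in alternative noncoding first exons of 40 and 163 bases. It measured 5.57, 4.58 and 6.39 CPM against 9.57, 10.9 and 6.44 CPM. The highest low-NaCl and the lowest high-NaCl library were almost level, and the diets were only just apart. The log2 fold change was -0.71 ± 0.23 and the edgeR adjusted p 0.140. Neither first exon passed alone. Their log2 fold changes were -0.78 ± 0.27 for the 40-base exon (adjusted p = 0.173) and -0.66 ± 0.25 for the 163-base exon (adjusted p = 0.213), and the usage test of the gene gave an adjusted p of 0.970. The pore partner Kcnq1 measured 44.4, 43.6 and 56.1 CPM against 53.3, 50.9 and 46.7 CPM, a log2 fold change of -0.07 ± 0.14 with an adjusted p of 0.845.

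The BK channel genes had too few counts to test. Kcnma1 (chromosome 14, 23289431 to 24014491, minus strand) has many transcripts that share exons. The full-length ones had at most 9 countable bases and no count. It held 10, 24 and 7 counts against 5, 10 and 1, in total 41 and 16. Nearly all of them came from a noncoding single-exon transcript of 1351 bases inside the locus, with 10, 22 and 7 against 5, 10 and 1 counts. These values therefore describe that stretch, and whether it is part of the channel mRNA was not tested. Kcnmb4 (chromosome 10, 116417861 to 116473878, minus strand) was 73.9% countable, but 1389 of the countable bases were a noncoding stretch of 1 transcript. The other transcript, which codes for 210 residues, was 37.9% countable. Of its 381 countable bases, 253 form a block that overlaps in part the antisense gene Kcnmb4os1. Kcnmb4 held 3, 0 and 1 counts against 0, 10 and 2, in total 4 and 12. Of those 12 counts 10 were in high-NaCl library 2, and the other libraries were at or under the level of 3 counts, which corresponds to 0.0574 to 0.0825 CPM.

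Levels can be compared between members only per length, as CPM per kilobase of countable exon. On the low-NaCl diet the values were Atp4a (499 ± 162), Kcnk1 (233 ± 28.7), Kcnj10 (71.9 ± 7.22), Kcnj1 (67.8 ± 5.76), Kcne1 (27.1 ± 4.47), Kcnj16 (3.23 ± 0.468) and Atp12a (0.162 ± 0.0410). On the high-NaCl diet these levels were 566 ± 211, 152 ± 11.1, 65.6 ± 8.61, 66.4 ± 9.80, 44.2 ± 11.3, 2.39 ± 0.706 and 2.35 ± 1.28 (SD, n = 3 each). The countable bases of Atp4a, Kcnj1, Kcnj16 and Kcne1 were pooled over alternative transcripts, and no transcript holds all of them. Dividing by the pooled bases lowers these levels, so their places beside the other members are not established. Most Kcnj1 counts came from 196 bases, nearly all Kcnj16 counts from 81 and all Atp4a counts from 379 at the transcript end. Among the fully countable members, Kcnk1 was highest and Atp12a lowest on both diets. On the low-NaCl diet Atp12a was also last of all tested members. Only Atp12a, Kcnj10 and Kcnk1 were fully countable, and the level of a short countable block depends on how many whole reads can lie in it.

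Beyond the 9 members, 72 other genes of pore-forming potassium channels were listed by family. Of these 25 could be tested, 0 were higher and 1, Kcns1, was lower on the low-NaCl diet. The shares of all tested genes were 1.72% and 1.74%. At an unadjusted edgeR p under 0.05, 2 were higher and 5 lower, beside 9.17% and 9.13% of all tested genes. Their median log2 fold change was 0.02. DESeq2 called more of those named here, with adjusted p of 0.00463 for Kcnj13, 0.0102 for Kcnk5 and 0.00319 for Kcnt1. Kcns1, a silent subunit that modifies other voltage-gated channels, measured 4.52, 5.10 and 2.81 CPM against 15.0, 8.26 and 10.9 CPM. Its log2 fold change was -1.45 ± 0.28 with an edgeR adjusted p of 0.0271. The call ended without low-NaCl library 2 (0.0691), low-NaCl library 3 (0.0747), high-NaCl library 1 (0.0750) or high-NaCl library 3 (0.0887), under total-count scaling (0.0508) and once lane was a term (0.248). Without the 2 libraries of over 25% mitochondrial counts, an alternative chosen after the data were seen that leaves high-NaCl library 2 alone in its group, its log2 fold change was -1.01, with an adjusted p of 0.218.

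Among the inward rectifiers, Kcnj13 measured 10.4, 11.1 and 11.2 CPM against 7.62, 6.04 and 6.23 CPM, and its diets did not overlap. Its log2 fold change was 0.72 ± 0.17 and its edgeR adjusted p 0.0530. It passed without a filter on low counts (0.0466), with a filter of at least 1 CPM (0.0481) and among genes at least 50% countable (0.0471). It did not pass with any single library left out (0.0673 to 0.205) or with lane as a term, where the change was 0.44 (0.567). Kcnj2 and Kcnj4 had log2 fold changes of -0.88 and 1.27 and did not pass (adjusted p = 0.250 and 0.294). Among the two-pore channels, Kcnk5, which carries an alkali-activated background current, measured 14.0, 17.6 and 32.3 CPM against 7.48, 13.4 and 8.09 CPM. Its log2 fold change was 1.14 ± 0.33 and its edgeR adjusted p 0.0968, with 0.0395 when low-NaCl library 1 was left out. Leaving out other single libraries gave up to 0.301, and lane as a term gave 0.524. The sodium-activated channel Kcnt1 measured 2.56, 7.01 and 3.89 CPM against 7.48, 12.6 and 14.6 CPM. Its log2 fold change was -1.36 ± 0.36 with an adjusted p of 0.0755. Kcnk3 and Kcnk4 (0.74 and 0.02), Kcnc2 and Kcnh5 (-0.77 and -1.14) and Kcnn2 and Kcnu1 (-0.39 and 0.38) did not pass either.

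**Figure D3:**
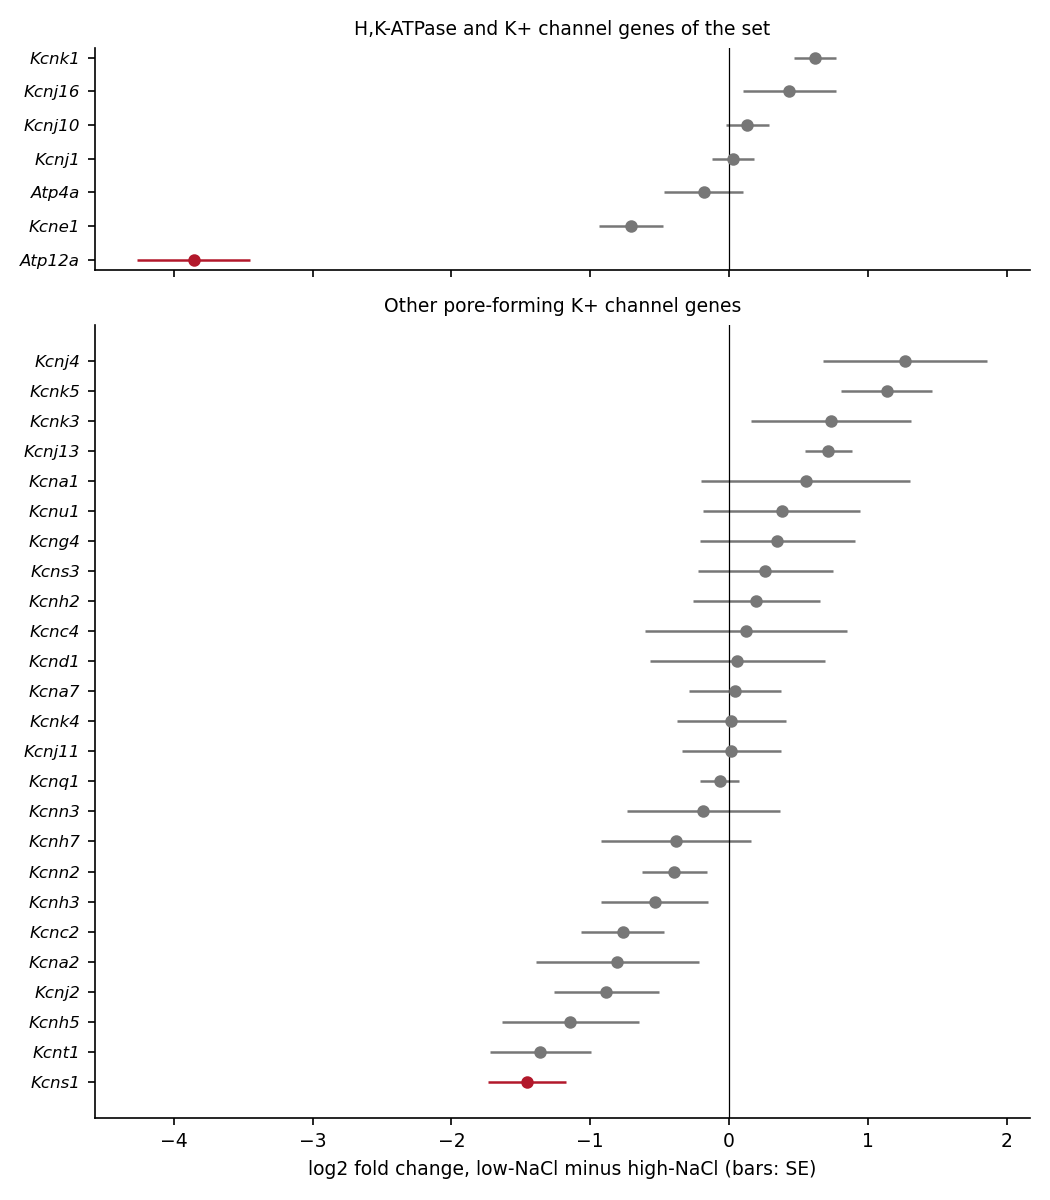
Log2 fold change, low-NaCl minus high-NaCl, of the 7 tested members (top) and of 25 other tested potassium channel genes (bottom), with SE as bars; red marks an edgeR adjusted p under 0.05 and grey the rest. Atp12a at -3.86 lies beyond all the others shown, and Kcns1 at -1.45 is the other gene in red.

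Of 20 accessory subunit genes 4 could be tested and 0 passed, with 0 at an unadjusted p under 0.05. Kcne1l, Lrrc52 and Kcnab3 had log2 fold changes of -0.43, 0.32 and 0.38. Slc12a7 encodes a potassium chloride cotransporter, which returns potassium and chloride across the cell membrane. It measured 143, 130 and 140 CPM against 132, 110 and 134 CPM, with a log2 fold change of 0.13 ± 0.13. Slc12a5, of the same family, had a log2 fold change of -0.32 at under 1 CPM, and neither passed by edgeR, DESeq2 or limma-voom.

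Regulators of these channels formed a list of 14 genes, of which 10 were tested. Of these 1 was higher and 1 was lower, against 1.72% and 1.74% of all tested genes. At an unadjusted edgeR p under 0.05, 2 were higher and 6 lower, beside 9.17% and 9.13% of all tested genes. The diets did not overlap in 7 of the 10, against 23.9% of all tested genes. Sgk1, which encodes an aldosterone-induced kinase that raises ROMK and ENaC at the membrane, was 38.25% countable. It measured 2.61, 9.68 and 7.95 CPM against 0.193, 1.51 and 0.160 CPM, with only 7, 79 and 6 counts on the high-NaCl diet. It rose on the low-NaCl diet, with a log2 fold change of 3.35 ± 0.75 and an edgeR adjusted p of 0.0417. That call ended without low-NaCl library 2 (0.183), low-NaCl library 3 (0.0958), high-NaCl library 1 (0.227) or high-NaCl library 3 (0.148), and by limma-voom (0.0646). It also ended under total-count scaling (0.0868), without a filter on low counts (0.298) and once lane was a term (0.328). Without the libraries of over 25% mitochondrial counts its log2 fold change was 2.15, with an adjusted p of 0.429. Scnn1g, the gamma subunit of ENaC, fell, from 711, 861 and 621 CPM on the high-NaCl diet to 271, 258 and 379 CPM on the low-NaCl diet. Its log2 fold change was -1.27 ± 0.20 and its adjusted p 0.0127, and that call was lost when low-NaCl library 2 was left out (0.0685) or lane was a term (0.242). Hsd11b2, the enzyme that keeps glucocorticoids from the mineralocorticoid receptor, was 2.27% countable and did not pass (-1.80 ± 0.44, adjusted p = 0.0574). It passed by DESeq2 (0.00274), by limma-voom (0.0476), without a filter on low counts (0.0105) and without low-NaCl library 3 (0.0265). With lane as a term the adjusted p of Hsd11b2 was 0.242, and leaving out other single libraries gave up to 0.217.

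Markers of the cell types of the tubule differed between the diets too. The summed level of 10 principal cell markers was 4281 to 5777 CPM on the low-NaCl diet and 9378 to 11498 CPM on the high-NaCl diet, with 3 of 8 tested lower and 0 higher. Aqp2 carried most of that sum, as Klk1 did for the connecting tubule, Cldn19 for the thick limb, Slc12a3 for the distal convoluted tubule, Plvap for endothelium and Tagln for smooth muscle. The sum of 15 intercalated cell markers was 6006 to 10465 CPM against 5082 to 6114 CPM, with 6 of 15 tested higher and 0 lower. Of all tested genes, 1.72% were higher and 1.74% lower. Not all markers of a list had 1 direction. Tfcp2l1 of the principal cell list was higher by 0.65 on the log2 scale without passing (adjusted p = 0.136), and Rhcg and Rhbg of the intercalated list had -0.13 and -0.58 (adjusted p = 0.802 and 0.282). The part of cell makeup in these results was not tested. The connecting tubule sum was 28697 to 31833 CPM against 30107 to 38935 CPM, with 2 of 3 tested lower, and the thick limb sum 472 to 555 CPM against 357 to 511 CPM, with 1 of 5 tested higher. Proximal tubule markers summed to 17.9 to 90.2 CPM against 28.9 to 44.4 CPM and podocyte markers to 1.08 to 8.95 CPM against 4.99 to 12.7 CPM, with none called. Markers of the distal convoluted tubule summed to 2.81 to 3.80 CPM against 1.79 to 2.98 CPM, endothelial markers to 0.401 to 1.79 CPM against 3.15 to 3.38 CPM, and immune markers to at most 0.688 CPM in any library. Smooth muscle markers summed to 13.7 to 51.9 CPM against 19.7 to 22.6 CPM. Emcn of endothelium (65.9% countable), Ptprc of immune cells (19.2%) and Myh11 of smooth muscle (13.7%) were at 0 counts. Pecam1, Pdgfrb and Gata3 were also at 0, but with 0, 19 and 3 countable bases their zeros follow from the counting.

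**Figure D4:**
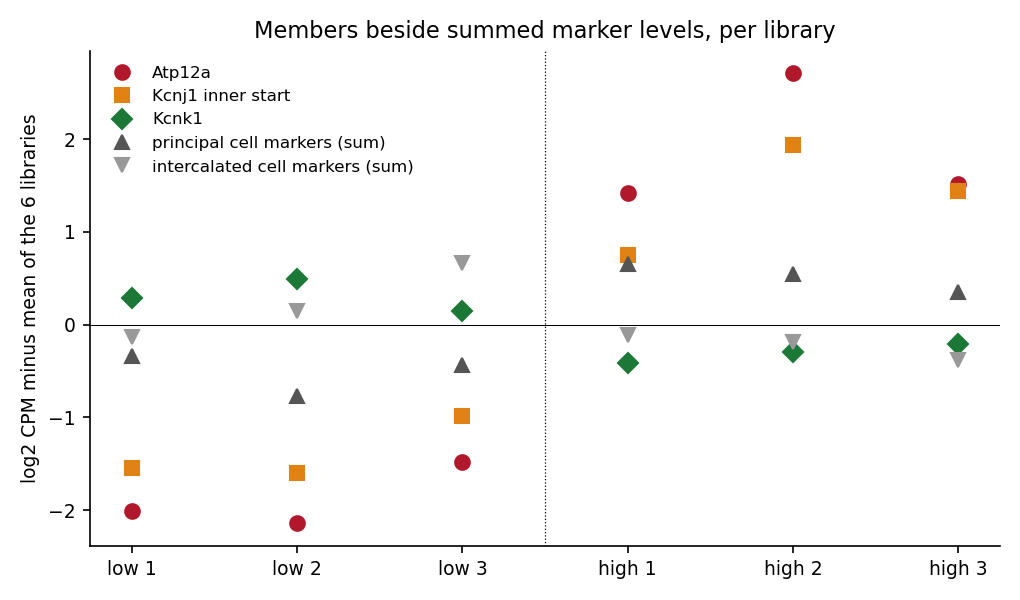
Log2 CPM minus its mean over the 6 libraries, for Atp12a, the inner Kcnj1 start and Kcnk1 (coloured symbols) and for the summed principal and intercalated cell markers (grey triangles), in each library. Atp12a and the inner Kcnj1 start spread more widely than either marker sum. They lie below 0 in all 3 low-NaCl libraries, as does the principal cell sum.

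The libraries held 40101899 to 46861531 counts. Mitochondrial genes took 20.5 to 21.8% of them on the low-NaCl diet and 21.9 to 29.9% on the high-NaCl diet, with high-NaCl libraries 1 and 3 over 25%. Lane 1 held library 1 of each diet, lane 2 the other low-NaCl libraries and lane 3 the other high-NaCl libraries, so lanes 2 and 3 hold 1 diet each and give no within-lane value. With a lane term 1 gene in all was higher and 2 were lower.

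**Figure D5:**
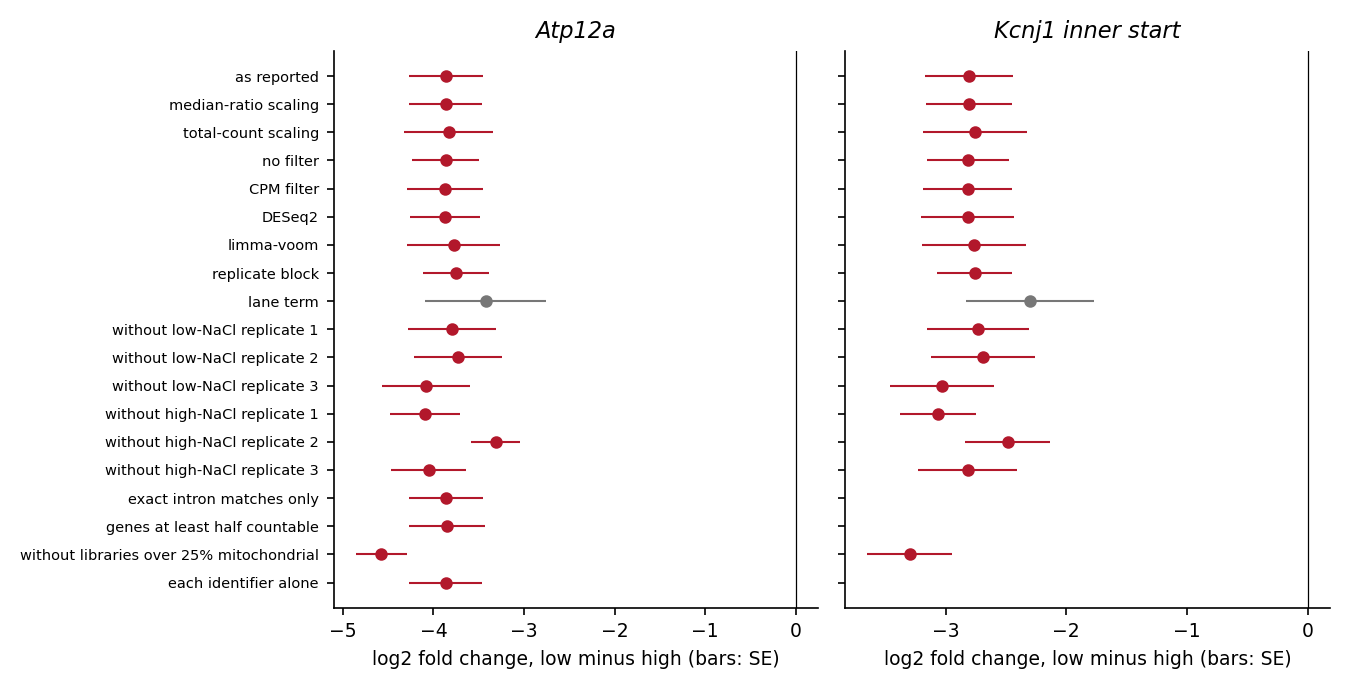
Log2 fold change of Atp12a (left) and of the inner Kcnj1 start (right) under each way of processing, with SE as bars; red marks an adjusted p under 0.05 and grey the rest, and a blank line is a setting that was not run for that feature. Every estimate is negative, and the lane term is the only setting in grey, at -3.42 for Atp12a and -2.30 for the inner Kcnj1 start.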

How the data were processed

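RNA of 6 libraries, 3 per diet, was analysed. The deposited files hold raw read counts per UCSC transcript identifier of build mm10, made by the authors with featureCounts 1.5.0-p3, per the file headers. The headers set no option for strand or for overlaps, and the defaults of that program ignore strand and drop reads that touch more than 1 identifier. FastQC, Subread and edgeR are named in the submitters' processing notes, whereas the aligner is not given in the sources used here. Tests had been planned for counts per gene, so the 59121 identifiers were joined to GENCODE genes by identical introns (41510 identifiers, 72.2% of counts) or by at least 50% exonic overlap on the same strand (11061, 22.2%), and summed. The 6550 unmatched identifiers (5.57%) entered library sizes only. A countable base lies in exons of 1 identifier.

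Genes were tested with edgeR 4.0.16 (R 4.3.3, limma 3.58.1; Python 3.11.15 for joins) using filterByExpr, TMM, glmQLFit with robust estimation and glmQLFTest, without covariates. The biological coefficient of variation was 21.6%, and the counts of 40101899 to 46861531 per library set the precision. Standard errors were derived from the fold change and its F statistic. Ratios within a library used a prior count of 0.5 and an exact permutation test. The steps were tested on simulated data. Alternatives were other scalings and filters, DESeq2 1.42.0, limma-voom, a replicate block, a lane term and leaving out each library; the alternatives run on the Kcnj1 starts, the usage test and the setting without libraries of over 25% mitochondrial counts were added after the data were seen. Libraries of 1 diet differed far beyond sampling noise (chi-square over degrees of freedom 39.0 to 254), and none was treated as a duplicate.

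The members and gene lists were chosen with earlier results of these data known. Named were all members, up to 3 genes of each potassium channel, pump and regulator list by smallest p and any that passed, marker genes at 0 or carrying most of their list's sum, and the 3 genes most like each member that passed; Atp4b and Kcnq1 were added as partners of members and Tfcp2l1, Rhcg and Rhbg after their values were seen, and 3 genes that the rule would name are not reported here. Sequences came from RefSeq (GRCm38.p6) and GENCODE.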

Additional observations from a re-analysis of the deposited data

How the results depend on the processing

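Atp12a kept its direction in all 18 alternatives run and its call in 17, the exception being the lane term (log2 fold change -3.42, members called lower 0); the inner Kcnj1 start lost its call there too (-2.30). Whether the replicate numbers pair the libraries is not known. Same-numbered deviations correlated at 0.39, 0.46 and -0.05 for numbers 1, 2 and 3 over 6961 genes, and library 1 of each diet shared lane 1. With the replicate number as a block, 465 genes were higher and 447 lower, against 182 and 184 without, and the members called higher rose from 0 to 1, Kcnk1 (adjusted p = 0.0169). Outside the members, Kcnj13 (0.0286), Kcnt1 (0.00710) and Hsd11b2 (0.0470) passed under the block. Members called higher were also 1 without a filter and 1 by DESeq2, again Kcnk1. Genes higher and lower were 81 and 55 with total-count scaling, 409 and 448 by DESeq2, 1 and 2 with a lane term, and 31 and 92 without the libraries of over 25% mitochondrial counts; genes lower were 280 without a filter. Leaving out each library in turn gave 34 to 292 higher (292, 39 and 59 without low-NaCl libraries 1, 2 and 3, 67 and 34 without high-NaCl libraries 1 and 3), 36 to 254 lower (36 and 76 without low-NaCl libraries 2 and 3, 95 and 53 without high-NaCl libraries 1 and 3), and 1 to 2 identifiers whose usage differed. Signs that turned were all of genes that did not pass. With a lane term these were Atp1b2 (-0.50) and Slc12a5 (2.22). Leaving out single libraries gave -0.47 to 0.16 for Atp4a, -0.066 to 0.15 for Kcnj1, -0.26 to 0.50 for Kcnk4, -0.060 to 0.35 for Atp1b2 and -0.099 to 0.21 for Atp1b3. Without the libraries of over 25% mitochondrial counts, which leaves 1 high-NaCl library assumed to vary like the others, Atp4a was 0.15, Kcnj10 -0.085, Kcne1l 0.17 and Atp1b3 -0.20. The cause was not tested. The largest shift of the median of all genes was 0.09 (total-count scaling). The precision of Kcnj16, Kcnma1 and Kcnmb4 is limited by their low counts.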
